A study of Homo sapiens with 18 samples.

Results

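WNT signalling genes were examined in 3 human lung cancer cell lines before and after epithelial-mesenchymal transition (EMT), the switch of epithelial cells to a migratory, fibroblast-like state. The genes were picked by symbol: every WNT ligand, Frizzled receptor (FZD), SFRP and DKK inhibitor in the table, and LRP5, LRP6, AXIN2, LGR5, RNF43, ZNRF3, NKD1, LEF1 and TCF7. This rule was set with earlier results of these data known, so counts of its genes beside those of all genes are a description. The rule found 45 of the 19849 genes in the table, namely 18 WNT ligands, 10 Frizzled receptors, 2 co-receptors, 8 secreted inhibitors, 5 feedback and surface regulators and 2 transcription factors.

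The lines were A549, HCC827 and NCI-H358, all established from human lung cancers. Each was measured as parental cells and as mesenchymal derivatives cultured with 2 ng/ml TGFβ for 3 weeks according to the labels, while the methods give a range of weeks that differs between lines. All cells grew in RPMI1640 medium with 10% FBS and 4 mM glutamine, and the derivatives were moved to medium without TGFβ the day before lysis. There were 3 Affymetrix U133 Plus 2.0 arrays for each of the 6 groups, 18 in all, and the study describes such samples as separate biological ones made at one time. Each line is 1 tumor cell line, and the effect of TGFβ cannot be told apart from that of the weeks in culture.

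WNT proteins are secreted lipid-modified ligands that bind Frizzled receptors at the cell surface. In the canonical branch a WNT joins a Frizzled to the co-receptor LRP5 or LRP6, which stabilizes β-catenin and lets it act with LEF1, TCF7 and related factors in the nucleus, where AXIN2, LGR5, RNF43, ZNRF3 and NKD1 are known targets that feed back on the pathway. In the non-canonical branches, for which WNT5A is the best known ligand, Frizzleds act with other surface proteins on cell polarity, movement and calcium. SFRP proteins bind WNTs outside the cell, and DKK1 blocks LRP5 and LRP6.

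Levels are given as deposited, on a log2 scale on which 1 unit is a 2-fold difference, and a change is the mean of the 3 mesenchymal arrays minus the mean of the 3 parental arrays. Each gene was read by 1 probe set, so levels were compared between groups for the same gene. Levels of different genes were compared only with the median gene of an array, and a reading below that median describes the probe set only. Changes were tested by limma, fitted once to the 6 groups, with Benjamini-Hochberg adjustment of p values over all genes, and a gene was called with an adjusted p below 0.05 and a change above 2-fold. Array medians ran from 6.31 to 6.47, and 0 pairs of arrays held identical values. As a check of the labels, all 6 epithelial markers examined fell in HCC827 and NCI-H358 and 3 of the 6, CDH1, EPCAM and KRT19, fell in A549. CDH1 and EPCAM were lower in the mesenchymal derivatives of all 3 lines by 2.69 to 5.81 log2 units. In A549 the keratin genes KRT8 and KRT18 differed by -0.54 and -0.34 and the tight junction gene CLDN4 by 0.34, and none of these was called. CDH2 and FN1, which mark mesenchymal cells, were higher by 1.94 to 3.98. SNAI1 was higher by 0.52 to 0.92 and was called in no line, and VIM and ZEB1 were called in HCC827 and NCI-H358 but not in A549, where both were higher by 0.79. Of 13 markers of leukocytes, endothelial cells and erythroid cells, KDR in NCI-H358 was the only one called. The summed linear level of the 5 endothelial markers there ran from 129.6 to 136 on the parental and from 153 to 201 on the mesenchymal arrays. In that line KDR was higher by 1.60 and TEK by 0.23, while PECAM1, CDH5 and VWF differed by -0.32, -0.25 and -0.08. Of the 5 endothelial markers 4 read below the median gene on all 18 arrays, and their part in the results was not tested. The leukocyte gene PTPRC and the endothelial gene CDH5 stayed at or below 3.28 and 4.43 on all 18 arrays.

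The 2 ligands WNT5A and WNT5B rose in all 3 lines, and no other member was called in all 3. The receptors FZD5 and LRP5 and the ubiquitin ligase RNF43 fell in HCC827 and NCI-H358. The receptor FZD2 fell in A549 and rose in NCI-H358, the inhibitors DKK1 and SFRP4 fell in A549, and the transcription factor LEF1 rose in NCI-H358. In A549, 8 members were called, or 17.8% of the 45, where 8.02% of all genes were called. Of these 5 were higher, as were 4.15% of all genes, and 3 were lower, as were 3.87%. In HCC827, 6 members were called, or 13.3% against 11.5% of all genes, a share near the background, with 2 higher (4.89% of all genes) and 4 lower (6.58%). In NCI-H358, 7 members were called, or 15.6% against 9.38% of all genes, with 4 higher (3.96% of all genes) and 3 lower (5.42%). The median change of the 45 members was 0.03, 0.09 and 0.00 in A549, HCC827 and NCI-H358, and that of all genes was -0.02, 0.01 and 0.02. A few members moved far and most did not. By the adjusted p alone, 20, 16 and 18 members differed in A549, HCC827 and NCI-H358, where 43.4%, 45.8% and 41.4% of all genes did. With a 1.5-fold threshold beside it, 13, 11 and 13 members were called, with 17.4%, 22.2% and 18.8% of all genes, and 4 members moved the same way in all 3 lines, with 3.72% of all genes. The 3 parental and 3 mesenchymal arrays did not overlap for 28, 17 and 24 members, and for 52.4%, 51.2% and 51.6% of all genes. In all, 13 members (28.9%, with 19.4% of all genes) were called in at least 1 line, and of the other 32 members 24 had changes under 0.5 log2 units in every line.

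**Figure D1:**
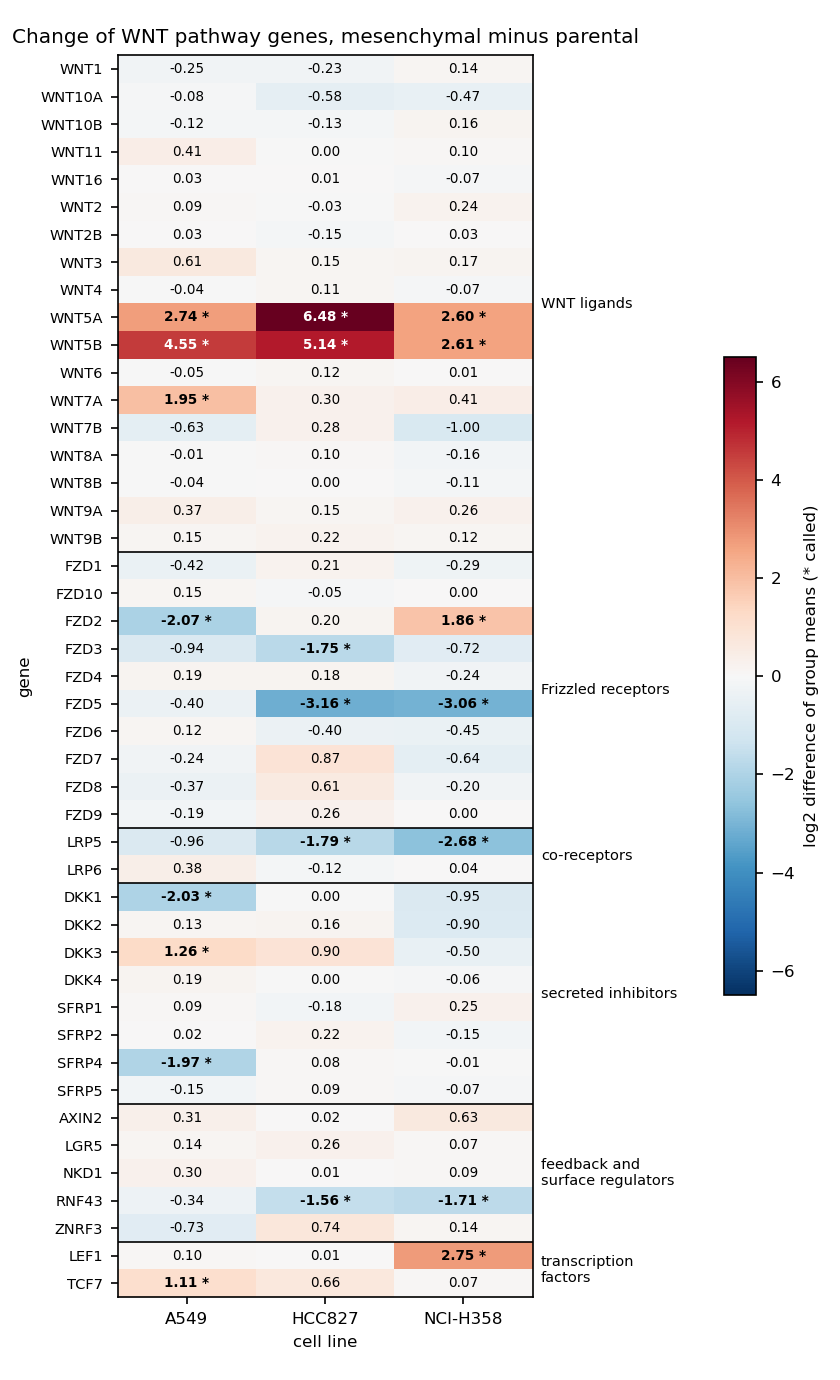
Change of each of the 45 genes (rows, grouped by role) in the 3 cell lines (columns), as the log2 difference of group means, mesenchymal minus parental, with n = 3 arrays per group. Bold values with an asterisk were called, and WNT5A and WNT5B are the only rows called in all 3 columns.

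WNT5A, a ligand of the non-canonical branch, rose in every line and most in HCC827. In HCC827 the parental arrays read 4.29, 3.76 and 4.08 and the mesenchymal arrays 10.58, 10.50 and 10.49, a change of 6.48 (standard error 0.129, adjusted p = 3.17e-16), or 89.1-fold. Ranked by change, it was the gene with rank 10 among the rises of all 19849 genes in that line. In A549 the parental arrays read 3.48, 3.71 and 3.66 and the mesenchymal arrays 6.12, 6.55 and 6.41, a change of 2.74 (adjusted p = 1.89e-11), or 6.69-fold. In NCI-H358 they read 6.16, 6.34 and 6.51 and then 9.0, 8.97 and 8.84, a change of 2.60 (adjusted p = 3.46e-11), or 6.07-fold. The groups did not overlap in any line. Parental NCI-H358 cells started higher than the other parental lines, by 2.72 than A549 (adjusted p = 6.30e-12) and by 2.29 than HCC827 (adjusted p = 1.11e-10), at a level close to that of mesenchymal A549 cells. The change in HCC827 exceeded that in A549 by 3.74 (95% interval 3.35 to 4.12, adjusted p = 5.23e-11), while the changes in NCI-H358 and A549 differed by -0.14 (interval -0.53 to 0.25, adjusted p = 0.594). In HCC827 the mesenchymal level was also the highest of the 6 groups, with NCI-H358 next and A549 last among the derivatives.

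WNT5B, the closest relative of WNT5A, rose in every line as well. In A549 the parental arrays read 5.25, 5.26 and 5.09 and the mesenchymal arrays 9.77, 9.73 and 9.75, a change of 4.55 (standard error 0.107, adjusted p = 2.02e-15), or 23.4-fold. In HCC827 they read 4.58, 4.29 and 4.16 and then 9.49, 9.32 and 9.63, a change of 5.14 (adjusted p = 5.10e-16), or 35.2-fold. In NCI-H358 they read 4.35, 4.18 and 4.42 and then 6.89, 6.84 and 7.07, a change of 2.61 (adjusted p = 2.69e-12), or 6.12-fold. The groups lay apart in each line, and the mesenchymal means were 9.75, 9.48 and 6.93 in A549, HCC827 and NCI-H358. The change in NCI-H358 was smaller than in A549 by 1.94 (95% interval of the difference -2.26 to -1.62, adjusted p = 1.79e-08). When single arrays were left out, the change of WNT5B ran from 4.50 to 4.58 in A549, 5.04 to 5.26 in HCC827 and 2.54 to 2.66 in NCI-H358. That of WNT5A ran from 2.65 to 2.86, 6.34 to 6.60 and 2.51 to 2.69 in the same order of lines. Both genes also passed the thresholds the study used for its arrays, an adjusted p below 1e-05 and a change above 5-fold, in all 3 lines. By those thresholds 0.242% of all genes were called in the same direction in all 3 lines. By the 2-fold threshold 1.67% of all genes were, and 0.761% of all genes were higher in all 3. Per line these stricter thresholds called 2 members in A549 (1.9% of all genes), 3 in HCC827 (2.95%) and 5 in NCI-H358 (2.17%). In bulk RNA of this kind, more RNA per cell and more cells that make a transcript cannot be told apart.

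Upstream sequence is shown for WNT5A and WNT5B because they are the members that moved together in all 3 lines. The windows are the 250 bases before each start listed for these genes in RefSeq (GRCh38.p14), 5′ to 3′ on the gene's strand, and both genes have 2 listed starts. Capitals mark matches on either strand to 4 short motifs: CAGAC, bound by SMAD proteins, the E-box CAGGTG, bound by ZEB and SNAI factors, TGANTCA, bound by AP-1, and CTTTGAT, bound by TCF and LEF factors. WNT5A is on the minus strand, at chr3:55487307-55487556 for the first start and chr3:55481399-55481648 for the second. WNT5B is on the plus strand, at chr12:1616806-1617055 and chr12:1628981-1629230.
WNT5A start 1: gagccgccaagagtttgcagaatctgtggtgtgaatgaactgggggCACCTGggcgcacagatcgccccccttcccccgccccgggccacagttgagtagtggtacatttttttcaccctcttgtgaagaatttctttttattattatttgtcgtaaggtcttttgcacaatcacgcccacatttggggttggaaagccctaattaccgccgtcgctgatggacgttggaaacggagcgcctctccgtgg
WNT5A start 2: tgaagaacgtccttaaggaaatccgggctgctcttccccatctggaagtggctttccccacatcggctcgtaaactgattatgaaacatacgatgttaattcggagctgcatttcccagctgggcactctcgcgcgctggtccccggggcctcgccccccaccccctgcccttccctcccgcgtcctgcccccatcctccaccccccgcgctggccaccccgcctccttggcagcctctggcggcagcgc
WNT5B start 1: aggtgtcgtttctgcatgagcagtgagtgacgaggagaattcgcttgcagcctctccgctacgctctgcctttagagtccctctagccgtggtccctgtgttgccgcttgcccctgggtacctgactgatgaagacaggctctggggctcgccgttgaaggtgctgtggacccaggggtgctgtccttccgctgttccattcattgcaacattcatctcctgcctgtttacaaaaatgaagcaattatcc
WNT5B start 2: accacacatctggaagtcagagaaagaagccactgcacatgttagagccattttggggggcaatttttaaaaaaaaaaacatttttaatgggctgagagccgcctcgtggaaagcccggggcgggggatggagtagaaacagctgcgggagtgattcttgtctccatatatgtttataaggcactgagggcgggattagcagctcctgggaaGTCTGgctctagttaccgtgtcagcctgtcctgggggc
The first WNT5A window held 1 E-box match, 204 bases before the start, and the second WNT5B window held 1 CAGAC match, 38 bases before the start. The other windows of the pair held none of the 4 motifs. Over 35116 RefSeq windows of the same length, 38.0% held CAGAC, 17.5% CAGGTG, 6.57% TGANTCA and 2.26% CTTTGAT on either strand. The matches describe these letters and name no site of binding.

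WNT7A, a ligand of epithelia, rose in A549 and was called in no other line. Its parental arrays in A549 read 5.27, 5.34 and 4.74 and its mesenchymal arrays 6.79, 7.26 and 7.14, a change of 1.95 (adjusted p = 2.49e-08), or 3.85-fold. The change was 0.30 in HCC827, where the groups overlapped, and 0.41 in NCI-H358. It was larger in A549 than in HCC827 by 1.64 and than in NCI-H358 by 1.54 (adjusted p = 1.32e-05 and 2.87e-05). WNT7B, which shares a subfamily with WNT7A, fell just short of the 2-fold threshold in NCI-H358, with 7.46, 7.54 and 7.57 on the parental arrays and 6.77, 6.57 and 6.22 on the mesenchymal arrays, and its probe set is of the kind that can also read other genes. Its change was -0.63 in A549 and 0.28 in HCC827. WNT3, a canonical ligand, was higher in mesenchymal A549 cells by 0.61 (adjusted p = 9.14e-05), below the 2-fold threshold. The remaining 13 ligands had changes between -0.58 and 0.41. On all 18 arrays 11 of the 18 ligands (61.1%) read below the median gene, as did 37.3% of all genes.

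Among the Frizzled receptors, FZD5 showed the largest decrease, in HCC827 and NCI-H358. In HCC827 its parental arrays read 10.53, 10.14 and 10.01 and its mesenchymal arrays 7.11, 6.93 and 7.15, a change of -3.16 (adjusted p = 1.77e-13), or 8.94-fold lower. In NCI-H358 they read 9.43, 9.60 and 9.65 and then 6.53, 6.45 and 6.52, a change of -3.06 (adjusted p = 3.69e-13), or 8.33-fold lower. In A549 they read 8.88, 8.81 and 8.83 and then 8.39, 8.42 and 8.50, a difference of -0.40 (adjusted p = 0.00471) that was below the 2-fold threshold although the groups lay apart. The change in A549 was smaller than in HCC827 by 2.76 and than in NCI-H358 by 2.65, and the changes of the latter lines differed by 0.10 (95% interval -0.21 to 0.42, adjusted p = 0.656).

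FZD2, a receptor that can bind WNT5A, moved in opposite directions. In A549 it fell, from 11.05, 11.06 and 11.06 on the parental arrays to 9.02, 9.0 and 8.93 on the mesenchymal arrays, a change of -2.07 (standard error 0.0683, adjusted p = 1.79e-13), or 4.21-fold. In NCI-H358 it rose, from 8.36, 8.52 and 8.48 to 10.27, 10.24 and 10.42, a change of 1.86 (adjusted p = 7.98e-13), or 3.63-fold. In HCC827 the arrays read 9.88, 9.88 and 9.80 and then 10.14, 10.06 and 9.95, a difference of 0.20 that was not called. The changes in NCI-H358 and A549 differed by 3.93 (95% interval 3.73 to 4.14, adjusted p = 1.92e-14). The parental lines ran from 8.45 in NCI-H358 through 9.85 in HCC827 to 11.06 in A549, and after EMT the order was reversed, with means of 10.31, 10.05 and 8.98.

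FZD3, a receptor known for its part in planar cell polarity, fell in HCC827, from 6.63, 6.26 and 6.10 to 4.44, 4.47 and 4.84, a change of -1.75 (adjusted p = 1.38e-08), or 3.36-fold. In A549 and NCI-H358 its mesenchymal arrays were also below all parental arrays, with differences of -0.94 and -0.72 (adjusted p = 3.15e-05 and 0.000456) under the 2-fold threshold. The other 7 Frizzleds were called in no line. FZD7 had changes of 0.87 in HCC827 and -0.64 in NCI-H358, both with an adjusted p below 0.05 and a difference between them of -1.51 (adjusted p = 5.18e-06), and FZD8 had -0.37 in A549 and 0.61 in HCC827. For FZD1, FZD4, FZD6, FZD9 and FZD10 the changes lay between -0.45 and 0.26.

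The co-receptor LRP5 fell, while its paralog LRP6 moved little. In NCI-H358 the parental arrays of LRP5 read 7.77, 7.77 and 7.69 and the mesenchymal arrays 5.25, 4.92 and 5.0, a change of -2.68 (adjusted p = 5.14e-12), or 6.43-fold lower. In HCC827 they read 7.52, 7.10 and 7.03 and then 5.46, 5.37 and 5.44, a change of -1.79 (adjusted p = 7.37e-10), or 3.47-fold lower. In A549 they read 7.13, 6.95 and 7.01 and then 6.22, 5.94 and 6.04, a difference of -0.96 (adjusted p = 2.65e-06) just under the 2-fold threshold. The groups lay apart in every line, and the change differed by -0.83 between HCC827 and A549, by -1.72 between NCI-H358 and A549 and by -0.89 between NCI-H358 and HCC827. Without A549 parental replicate 2 or without A549 mesenchymal replicate 1, LRP5 passed the 2-fold threshold in A549 too, with changes of -1.0 and -1.04, and was then called in all 3 lines. LRP6 had changes of 0.38, -0.12 and 0.04 in A549, HCC827 and NCI-H358, at levels of 9.05 to 10.78. By the adjusted p alone, FZD3, FZD5 and LRP5 were lower in all 3 lines, as were 6.14% of all genes, so that with WNT5A and WNT5B 5 members (11.1%) differed the same way in all 3, with 10.4% of all genes.

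Upstream sequence is shown for FZD5 and LRP5, the receptor genes that fell together in HCC827 and NCI-H358, with the same source, window and capitals as for the WNT5 genes. FZD5 is on the minus strand, at chr2:207769907-207770156, and LRP5 on the plus strand, at chr11:68312341-68312590.
FZD5: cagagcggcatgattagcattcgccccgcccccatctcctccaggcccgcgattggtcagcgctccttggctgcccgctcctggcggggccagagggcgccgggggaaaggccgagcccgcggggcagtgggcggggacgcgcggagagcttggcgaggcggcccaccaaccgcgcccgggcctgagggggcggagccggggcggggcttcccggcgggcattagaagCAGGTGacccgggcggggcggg
LRP5: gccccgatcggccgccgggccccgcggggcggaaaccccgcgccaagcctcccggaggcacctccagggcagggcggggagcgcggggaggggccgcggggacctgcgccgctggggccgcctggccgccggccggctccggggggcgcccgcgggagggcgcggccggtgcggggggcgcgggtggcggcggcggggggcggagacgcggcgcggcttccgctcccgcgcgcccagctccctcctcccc
The FZD5 window held 1 CAGGTG match, 22 bases before the start, and the LRP5 window held none of the 4 motifs. G and C made up 76.8% of the FZD5 window and 87.2% of the LRP5 window, against 50.8% to 64.4% in the 4 WNT5 windows and a median of 58.0% over all windows.

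The secreted inhibitors were called in A549 alone among the 3 lines, with DKK1 and SFRP4 lower and DKK3 higher. DKK1, which binds LRP5 and LRP6, fell in A549 from 12.47, 12.29 and 12.22 to 10.26, 10.33 and 10.30, a change of -2.03 (adjusted p = 1.30e-08), or 4.08-fold. In NCI-H358 it read 10.63, 10.59 and 10.42 and then 9.60, 9.65 and 9.54, a difference of -0.95 (adjusted p = 9.09e-05) under the 2-fold threshold. In HCC827 it read 9.03, 9.81 and 9.90 and then 9.68, 9.46 and 9.58, with overlapping groups and a difference of 0.00 (95% interval -0.34 to 0.33). The change in A549 differed from that in HCC827 by 2.02 (adjusted p = 1.17e-06). After EMT the 3 lines lay between 9.46 and 10.33, whereas the parental lines spanned 9.03 to 12.47.

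SFRP4, a WNT-binding inhibitor, fell in A549 from 6.87, 6.80 and 6.71 to 4.81, 4.93 and 4.74, a change of -1.97 (adjusted p = 2.26e-11), or 3.92-fold. In the other lines it lay between 3.70 and 4.15 on every array. SFRP1, of the same family, was at 10.26 to 10.42 on all 6 A549 arrays and at 3.82 to 4.70 on the 12 arrays of the other lines, and its change in A549 was 0.09. DKK3, a divergent DKK protein without the LRP-binding activity of DKK1, rose in A549 from 8.42, 8.34 and 8.49 to 9.60, 9.75 and 9.69, a change of 1.26 (adjusted p = 5.21e-09), or 2.40-fold. Its change was 0.90 in HCC827 and -0.50 in NCI-H358, where it was at or below 4.65 on all 6 arrays. The changes in NCI-H358 and A549 differed by -1.77 (adjusted p = 8.02e-09). DKK2, SFRP2, SFRP5 and DKK4 were called in no line, and the farthest of their changes was -0.90, for DKK2 in NCI-H358, at levels no higher than 4.16.

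RNF43, a ubiquitin ligase that removes Frizzleds from the cell surface, fell in HCC827 and NCI-H358. In HCC827 it read 6.92, 6.52 and 6.15 on the parental arrays and 4.92, 5.14 and 4.85 on the mesenchymal arrays, a change of -1.56 (adjusted p = 6.83e-08), or 2.95-fold lower. In NCI-H358 it read 8.05, 8.05 and 7.77 and then 6.18, 6.28 and 6.29, a change of -1.71 (adjusted p = 2.75e-08), or 3.26-fold lower. In A549 it read 5.70, 5.64 and 5.87 and then 5.39, 5.38 and 5.43. The difference of -0.34 was below the 2-fold threshold and also missed the threshold on p (adjusted p = 0.0673). ZNRF3, a ubiquitin ligase with the same known activity, had differences of -0.73, 0.74 and 0.14 in A549, HCC827 and NCI-H358. Its differences in A549 and HCC827 were opposite (1.47 apart, adjusted p = 2.25e-08), and both were under the 2-fold threshold.

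AXIN2, a widely used readout of canonical signalling, was called in no line. Its differences were 0.31, 0.02 and 0.63 in A549, HCC827 and NCI-H358 (adjusted p = 0.120, 0.940 and 0.00318), and in NCI-H358 its parental arrays read 6.28, 6.06 and 5.46 and its mesenchymal arrays 6.74, 6.51 and 6.46. NKD1, an inhibitor of the cytoplasmic DVL proteins, had differences of 0.01 to 0.30. LGR5, a receptor for R-spondins, read 2.33 to 3.12 on all arrays, below the median gene throughout. Of these 5 feedback and surface regulators, RNF43 was thus the only one called in any line.

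LEF1, a nuclear partner of β-catenin, rose in NCI-H358, from 4.78, 4.72 and 4.94 to 7.47, 7.28 and 7.96, a change of 2.75 (standard error 0.182, adjusted p = 1.44e-09), or 6.75-fold. In A549 and HCC827 both states lay between 3.85 and 4.62, with changes of 0.10 and 0.01. The change in NCI-H358 was larger than in A549 by 2.66 and than in HCC827 by 2.75 (adjusted p = 2.66e-07 and 2.40e-07). TCF7, of the same factor family, rose in A549 from 8.76, 8.71 and 8.82 to 9.77, 10.27 and 9.58, a change of 1.11 (adjusted p = 1.50e-06), or 2.15-fold. Without the A549 mesenchymal array at 10.27 the change was 0.90 and below the 2-fold threshold. In HCC827 TCF7 differed by 0.66 and in NCI-H358 by 0.07, and its probe set is of the kind that can also read other genes. The mesenchymal groups of the 2 factors therefore stood highest in different lines, LEF1 in NCI-H358 and TCF7 in A549.

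**Figure D2:**
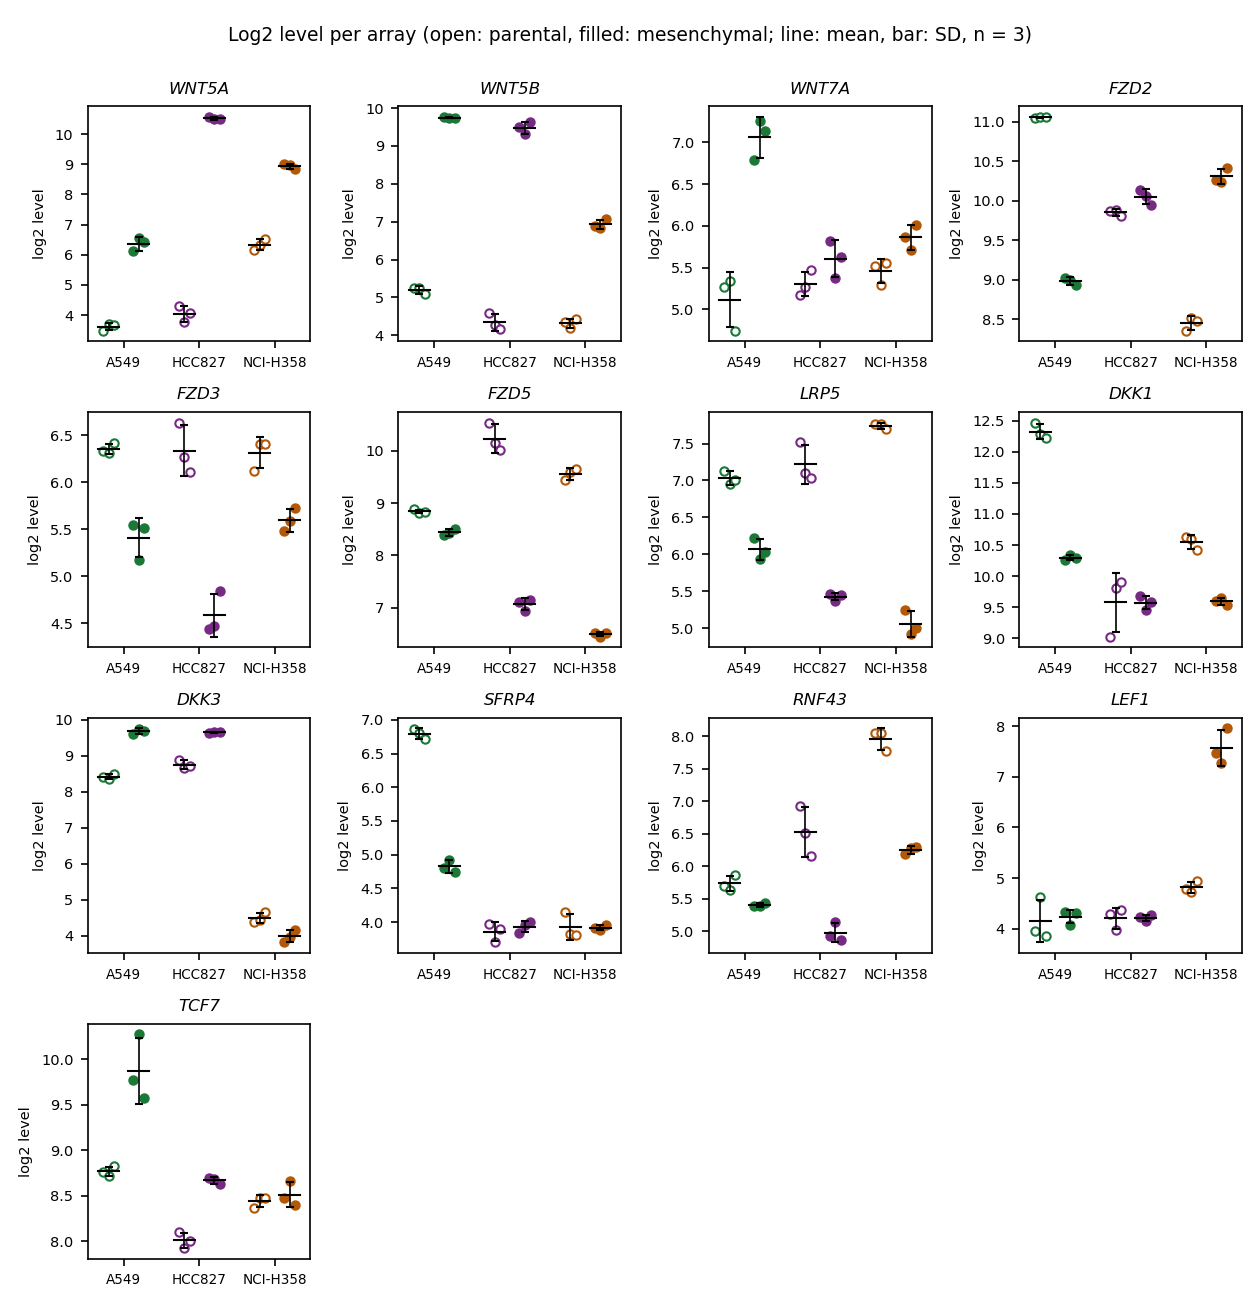
Log2 level on each array for the 13 members called in at least 1 line, with open circles for parental and filled circles for mesenchymal cells, and a line and bar for the mean ± SD (n = 3). WNT5A and WNT5B rise in each line, FZD2 moves down in A549 and up in NCI-H358, and LEF1 moves only in NCI-H358; each vertical axis has its own range.

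For the 13 called members, the change was compared between the 3 pairs of lines, 39 comparisons, with p values adjusted over all genes for each pair. In 31 of them the adjusted p was below 0.05, and in 24 of these the changes were more than 2-fold apart. The 13 were chosen as called in a line, so these counts are a description. Over all 45 members, 21 differed between HCC827 and A549 (46.7%, with 42.2% of all genes), 17 between NCI-H358 and A549 (37.8%, with 42.8%) and 18 between NCI-H358 and HCC827 (40.0%, with 37.9%). More than 2-fold apart were 9, 12 and 9 of the 45 members in the same order of pairs (20%, 26.7% and 20%), with 13.4%, 12.7% and 11% of all genes. In at least 1 pair 26 members (57.8%) and 60.2% of all genes differed. Among the members FZD2 and WNT5A stood farthest apart.

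**Figure D3:**
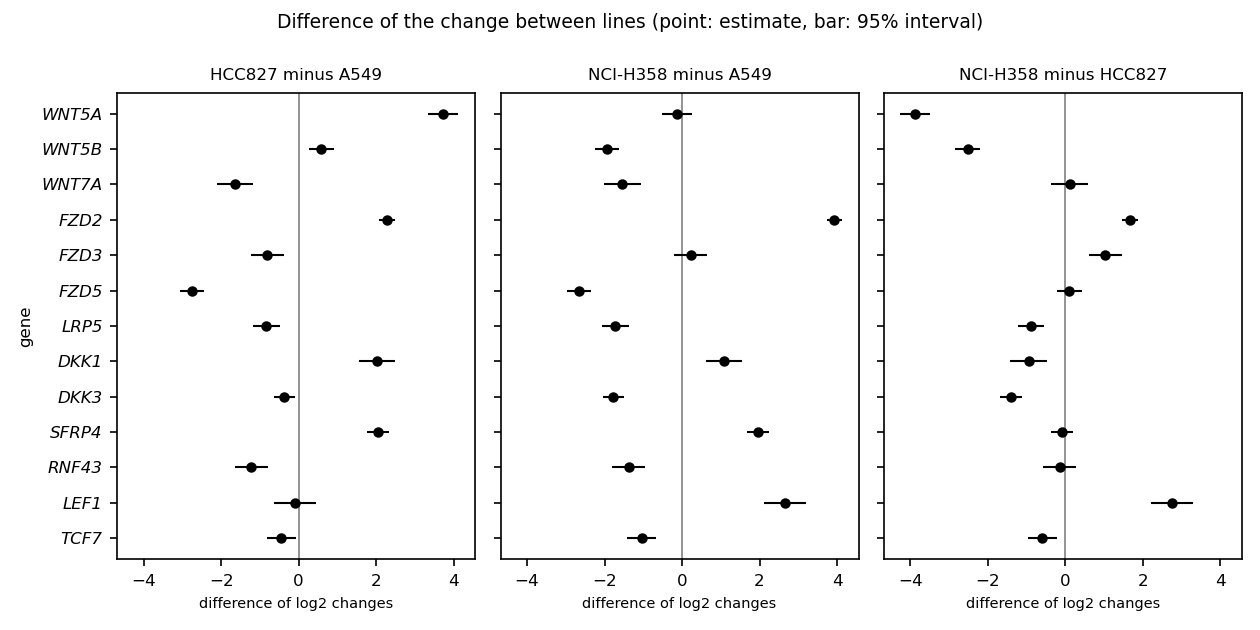
Difference of the log2 change (mesenchymal minus parental) between pairs of lines for the 13 called members, with the estimate as a point and its 95% interval as a bar. Points right of 0 are changes that were higher in the line named first, as for FZD2 in NCI-H358 against A549 at 3.93.

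The parental lines differed from each other before EMT. By the same thresholds 11 members differed between parental HCC827 and A549 (24.4%, with 18.8% of all genes), 13 between NCI-H358 and A549 (28.9%, with 20.4%) and 11 between NCI-H358 and HCC827 (24.4%, with 15.2%). SFRP1 was the farthest apart, 6.10 lower in HCC827 and 6.31 lower in NCI-H358 than in A549, or 68.5-fold and 79.4-fold. FZD8 was 3.43 lower in HCC827 and 3.55 lower in NCI-H358 than in A549, with 8.74, 8.54 and 8.70 on the parental A549 arrays. DKK3 was lower in NCI-H358 than in A549 by 3.92 and than in HCC827 by 4.25, or 15.1-fold and 19.1-fold.

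Among the ligands, WNT3 was highest in parental A549 at 7.33 ± 0.02 (SD, n = 3), followed by HCC827 at 6.30 ± 0.10 and NCI-H358 at 5.23 ± 0.09, and each pair of lines differed by more than 2-fold. WNT7B was higher in A549 than in HCC827 by 1.79 and than in NCI-H358 by 2.19, while its difference between the latter lines was under 2-fold. WNT9A stood above A549 by 1.78 and above HCC827 by 1.71 in NCI-H358, and its difference between HCC827 and A549 was 0.07 (95% interval -0.29 to 0.42). Among the target genes, RNF43 was above A549 by 2.22 in parental NCI-H358, and AXIN2 was lower in HCC827 than in A549 by 1.16 and than in NCI-H358 by 1.29. ZNRF3 was likewise lowest in parental HCC827, at 7.84 ± 0.10. In all, 19 members (42.2%) differed between at least 1 pair of parental lines, as did 30.7% of all genes, and 12 of these were called in no comparison of mesenchymal with parental cells.

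**Figure D4:**
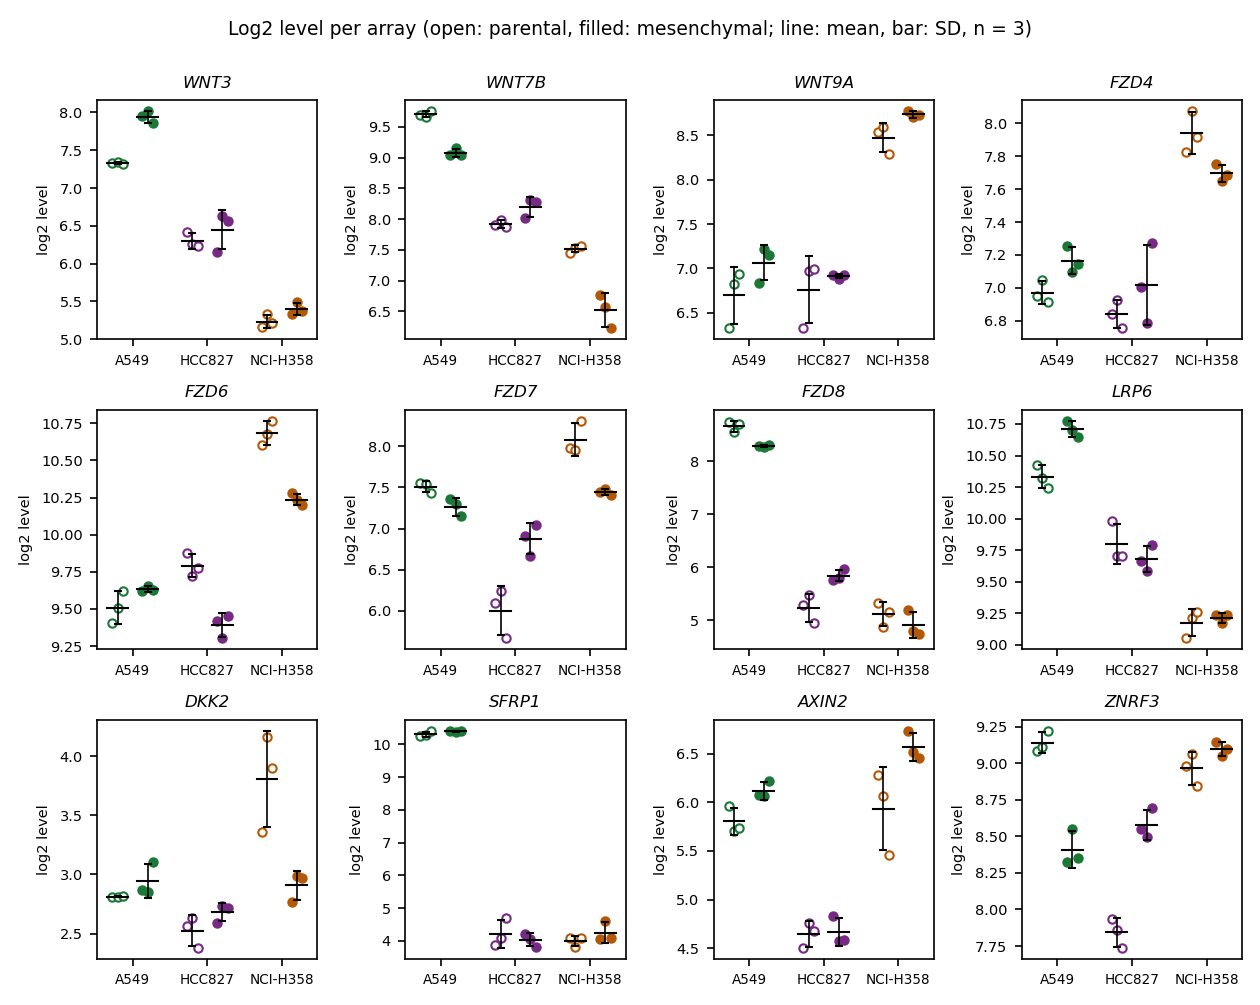
Log2 level on each array for the 12 members that differed between parental lines but were not called upon EMT in any line, with open circles for parental and filled circles for mesenchymal cells, and mean ± SD (n = 3). SFRP1 and FZD8 stand high in A549 in both states; each vertical axis has its own range.

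A list of 63 further genes of the pathway, all measured, was examined beside the members. In A549 13 of them were called (20.6%, with 8.02% of all genes), 10 higher and 3 lower. In HCC827 9 were called (14.3%, with 11.5%), all 9 higher, and in NCI-H358 10 (15.9%, with 9.38%), 6 higher and 4 lower. The median change of the list was 0.01, 0.07 and 0.06. Of the list, 8 genes were called in at least 2 lines in the same direction. The share of all genes called in this way was not counted, so the 8 are a description. PTK7, a surface protein of the planar polarity branch, rose in all 3 lines, by 1.38, 1.15 and 1.18 in A549, HCC827 and NCI-H358. DACT1, a regulator that binds DVL proteins, rose in A549 from 4.10 ± 0.18 to 9.17 ± 0.04 (SD, n = 3), by 5.07, and in HCC827 by 4.87, and was 0.57 higher in NCI-H358.

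LRP4 and TNFRSF19, both surface receptors, rose in A549 by 1.09 and 1.23 and in HCC827 by 2.15 and 1.89. In NCI-H358 they differed by -0.18 and 0.10 and were not called. TLE3, a co-repressor that binds TCF factors, rose in A549 and HCC827 by 1.03 and 1.14 and differed by 0.05 in NCI-H358. PRICKLE2, a planar polarity gene, rose 2.82-fold in A549 and by 2.37 log2 units in NCI-H358, and differed by -0.23 in HCC827. CELSR1, a cadherin of planar polarity, fell in A549 and NCI-H358, with changes of -1.07 and -1.28, and was higher by 0.84 in HCC827 (adjusted p = 9.84e-07), below the 2-fold threshold. NKD2, a relative of NKD1, fell in A549 and NCI-H358, with -1.01 and -1.91, and differed by -0.31 in HCC827. Of the ligand release genes, WLS, which carries WNTs to the cell surface, rose in A549 by 1.89 and differed in HCC827 by -0.85 (adjusted p = 3.92e-05), and PORCN, which acylates WNTs, rose in HCC827 by 1.06. CTNNB1, which encodes β-catenin, rose in A549 by 1.40 and was not called in the other lines. It was higher by 0.73 in HCC827 (adjusted p = 3.60e-05), below the 2-fold threshold, and differed by 0.17 in NCI-H358 (adjusted p = 0.256). The receptor LGR4 fell in A549, with a change of -3.16, and rose in NCI-H358 by 1.07. In HCC827 LGR4 was higher by 0.69 (adjusted p = 0.000333), below the 2-fold threshold. The surface protein ROR1 was lower in all 3 lines, with -0.97, -0.48 and -1.66 in A549, HCC827 and NCI-H358, and was called in NCI-H358 alone. WLS, PORCN, CTNNB1, LGR4 and ROR1 were named after their values were seen, and other listed genes called in 1 line are left out.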

How the data were processed

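RNA of 18 samples was hybridized to Affymetrix U133 Plus 2.0 arrays. The authors used RMA to normalize them, and the deposited table holds log2 values from 1 probe set for each of 19849 genes; how that probe set was chosen is not given in the sources used here. Probe sets ending in _x_at (WNT7B, TCF7) can read other genes. Columns were matched to samples by title, and 0 columns were left over. The files name no genome build, and promoter coordinates are those of RefSeq.

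Groups were compared with limma 3.58.1 in R 4.3.3 (lmFit, eBayes) in 1 fit of 18 arrays and 6 groups without covariates, and the script was tested on simulated data. Arrays have no read depth; 3 per group limit the precision, and an exact permutation test of 3 against 3 cannot go below 0.1. Each called member was described per array, and pathway genes were named where called in at least 2 lines in the same direction, with exceptions stated. The members and lists were chosen with earlier results of these data known. Of the 45 members 28 had a promoter window. Alternatives covered the fit, normalization, thresholds, the methods' t-test and each array left out.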

Additional observations from a re-analysis of the deposited data

Results flagged for a closer look

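The change upon EMT differed between lines in limma's direct test of that difference for 31 of the 39 comparisons of the 13 called genes. The 13 were chosen as called in a line, so this count is a description. In at least 1 pair of lines, 57.8% of the 45 members and 60.2% of all genes differed. Values are differences of log2 changes, with the line named first minus the line named second. For the ligands, WNT5A differed by 3.74 between HCC827 and A549 and by -3.88 between NCI-H358 and HCC827. WNT5B differed by 0.59 between HCC827 and A549, by -1.94 between NCI-H358 and A549 and by -2.52 between NCI-H358 and HCC827. WNT7A differed by -1.64 between HCC827 and A549 and by -1.54 between NCI-H358 and A549.

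For the receptors, FZD2 differed by 2.27 between HCC827 and A549, by 3.93 between NCI-H358 and A549 and by 1.66 between NCI-H358 and HCC827. FZD3 differed by -0.81 between HCC827 and A549 and by 1.03 between NCI-H358 and HCC827. FZD5 differed by -2.76 between HCC827 and A549 and by -2.65 between NCI-H358 and A549. LRP5 differed by -0.83, -1.72 and -0.89 in the order of pairs given for FZD2.

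For the inhibitors, DKK1 differed by 2.02, 1.08 and -0.95 and DKK3 by -0.37, -1.77 and -1.40 in the same order of pairs. SFRP4 differed by 2.05 between HCC827 and A549 and by 1.96 between NCI-H358 and A549. RNF43 differed by -1.22 between HCC827 and A549 and by -1.37 between NCI-H358 and A549. LEF1 differed by 2.66 between NCI-H358 and A549 and by 2.75 between NCI-H358 and HCC827, and TCF7 by -1.04 and -0.59 between the same pairs. The adjusted p of the 31 differences was at most 0.0301, that of DKK3 between HCC827 and A549.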

How the results depend on the processing

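The counts of called members followed the fold threshold. Above 1.5-fold they were 13 in A549, 11 in HCC827, 13 in NCI-H358 and 4 in all 3 lines (17.4%, 22.2%, 18.8% and 3.72% of all genes). With no fold threshold they were 20, 16, 18 and 5 (43.4%, 45.8%, 41.4% and 10.4% of all genes). By the study's thresholds 2 members were called in A549 and 3 in HCC827, and of the 63 pathway genes outside the members 2, 1 and 2 in A549, HCC827 and NCI-H358, where 1.9%, 2.95% and 2.17% of all genes were. With an array left out, counts ranged from 7 to 10 in A549, 6 in every fit in HCC827, 7 to 9 in NCI-H358 and 2 to 3 in all 3 lines. The alternatives gave 1011 values of called changes and differences, and many of these repeat the size of the main value by construction. Leaving out an array of another line does not alter a line's change, and 1 fit per line or an intensity trend alters only its standard error. No value reversed among the 1011, and 8 of them, all with an array left out, fell below the 2-fold threshold. They were the change of TCF7 in A549 without A549 mesenchymal replicate 2 (0.90), the difference of TCF7 between NCI-H358 and A549 without that array or NCI-H358 mesenchymal replicate 3 (as near to 0 as -0.84), and the difference of FZD3 between NCI-H358 and HCC827 in 5 fits (down to 0.88), those without HCC827 parental replicate 1, HCC827 mesenchymal replicate 1 or 2, NCI-H358 parental replicate 1 or NCI-H358 mesenchymal replicate 3. Other alternatives were median centring, leaving out dim genes, an intensity trend, 1 fit per line, repeated quantile normalization, array weights and the methods' t-test. All of them kept the counts of called members within 1.5 times. The counts of differences between lines, between parental lines and of pathway genes were not rerun under each of them. No paired analysis was possible because the labels give no replicate numbers. The replicate numbers printed here only count the samples of a group in their listed order.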
